A study of Mus musculus with 6 samples.

Results

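The rodent miRNA names miR-3470, miR-3473, miR-1195 and miR-5106, picked as a group for resemblance to short interspersed elements (SINEs), were followed. The reads were not compared with a repeat annotation, so that resemblance was not measured for each name. Members were all features in the deposited small RNA table whose name, without species prefix and isoform suffix, was miR-3470a, miR-3470b, miR-3473 with any letter, miR-1195 or miR-5106, from either arm of the hairpin. This gave 18 of 756 features, with 18 distinct sequences from 11 hairpins. The names were picked with the comparison described here already known, so their differences between groups are given as a description without a test.

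The 6 libraries were labelled as Mes23.5, a hybrid of mouse neuroblastoma and rat midbrain cells that has dopaminergic traits. SIX2_EV libraries (3) came from cells given extracellular vesicles of SIX2-overexpressing microglia (SIX2 is a homeobox transcription factor), and control_EV libraries (3) from cells given vesicles of control microglia. All cells in both groups were also exposed for 24 h to LPS, a component of the outer membrane of gram-negative bacteria. The growth protocol names BV2, a mouse microglial line, so the cell of origin is given only as labelled. The series title asks whether vesicles deliver miR-3470b to dopaminergic neurons, and these libraries hold RNA of the recipient cultures, in which RNA carried by vesicles and RNA made by the cells cannot be told apart.

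SINEs are short retrotransposons that are copied through RNA made by RNA polymerase III. In the mouse, the B1 family derives from 7SL RNA, which forms part of the signal recognition particle, and the B2 family from a transfer RNA, and copies of both lie in introns and untranslated regions of very many genes. Several rodent miRNA names were assigned to hairpins that lie in such repeats, where the same short sequence can also arise from a repeat transcript or from a longer RNA that holds a copy. Transfer RNA genes and the SINEs derived from them share internal promoter elements, the A box and the B box, which the polymerase III machinery recognises.

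The reads themselves are shown first, because their ends and bases bear on what was counted. Reads were deposited as DNA letters and are written 5′ to 3′, with the seed (bases 2 to 8, through which a miRNA pairs with its targets) in capitals. Names are printed without species prefix and isoform suffix, as in miR-3470b for mmu-miR-3470b_L+4R-1, mir-3470b-p3 for mmu-mir-3470b-p3_1ss15GA, miR-1195 for mmu-miR-1195_L+1R-4 and miR-5106 for mmu-miR-5106_R-4_1ss1AG. The first 2 are the sequences listed for the miR-3470 names, the third is the annotated mature miR-3470b from RefSeq (GRCm38.p6), and the last is the sequence of the other arm of mir-3470b.
miR-3470b as read: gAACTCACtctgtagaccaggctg
miR-3470a as read: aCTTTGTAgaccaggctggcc
miR-3470b in RefSeq: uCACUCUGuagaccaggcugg
mir-3470b-p3 as read: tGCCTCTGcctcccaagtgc

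The miR-3470b read began 4 bases before the annotated miRNA and ended 1 base before its end, so its seed was another one. It also carried the substitution C2A relative to its own hairpin, with positions counted from 1 at the 5′ end of the read and the hairpin's base given first. The mir-3470b-p3 read carried G15A. Both were assigned to the hairpin below, placed as deposited at chr16:43834215-43834340 on the plus strand in a genome build that the sources used here do not name. Capitals mark the stretches on which the 2 reads were placed.
mir-3470b hairpin: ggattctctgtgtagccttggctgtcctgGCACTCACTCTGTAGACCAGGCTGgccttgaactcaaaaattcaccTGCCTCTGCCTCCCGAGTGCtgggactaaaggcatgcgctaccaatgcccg

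The miR-3473 reads are shown for another reason, which is that they overlap. In the lines below, capitals mark the run of 15 bases that 5 members held in full. A further 2 members, mir-3473b-p5 and mir-3473c-p5, held its reverse complement.
miR-3473b as read: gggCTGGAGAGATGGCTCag
mir-3473f-p3 as read: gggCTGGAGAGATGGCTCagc
mir-3473d-p3 as read: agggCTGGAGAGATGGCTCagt
miR-3473e as read: ggggCTGGAGAGATGGCTC
miR-3473a as read: CTGGAGAGATGGCTCagc

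The read of mir-3473f-p3 was that of miR-3473b with 1 more base at its 3′ end, and mir-3473d-p3 also held the whole of miR-3473b. These reads therefore differ from miR-3473b by 1 to 3 bases at either end. The mir-3473f-p3 sequence was listed a second time as mir-1934-p3 with equal values in every library. Each value of mir-3473f-p3 given here is therefore 1 of 2 equal entries for that sequence. Of 67 member values above 0, 37 were whole within 0.05, and the rest were fractions.

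The last reads shown are those of miR-1195, from a hairpin placed at chr17:71167498-71167595 on the minus strand, and of miR-5106, from one at chr4:44221195-44221267 on the minus strand. Capitals in miR-1195 mark a match to GTTCGANNC, the core of the B box, and capitals in miR-5106 mark a match to the A box of transfer RNA genes.
miR-1195 as read: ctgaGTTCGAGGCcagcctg
miR-5106 as read: gggtctgTAGCTCAGTTGg

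The B box core, searched on both strands, was in 1 of 18 members (5.56%) and in 3 of 738 other features (0.407%). The A box, searched on the strand of the read alone, was in 1 of 18 members (5.56%) and in 11 of 738 other features (1.49%). A match only says that these letters are in the read.

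Few of the reads were the annotated miRNAs. One of the 18 members, miR-3473b, had exactly the annotated sequence. The other 7 members named for an annotated miRNA had shifted ends, and 10 were sequences from a hairpin arm with no annotated miRNA of that name. Among the 8 with an annotation, miR-3473b and miR-5106 were the 2 that kept the annotated 5′ end and so the annotated seed. The 5′ end lay 1 base before the annotated one for miR-1195, miR-3473a and miR-3473e, 1 base after it for miR-3473d and 2 bases after it for miR-3470a. The 18 reads had 14 distinct seeds, and the shared ones were those of miR-3473b with mir-3473f-p3, miR-3473e with mir-3473d-p3, mir-3470a-p3 with mir-3470b-p3, and mir-3473b-p5 with mir-3473c-p5.

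Mismatches to the assigned hairpin were common among the members. A base that differed from the hairpin was present in 13 of 18 members (72.2%). The same was true of 39 of 117 other features with mouse names (33.3%) and of 40 of 380 mature miRNA names with a mouse hairpin (10.5%). Beside C2A and G15A, the differences included G1C in miR-1195, A3G in mir-3473f-p3, A1G in miR-5106, T1G in miR-3473e and G13A in mir-3473d-p3.

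Many members were placed on hairpins other than their own. With at most 3 mismatches, 15 of 18 reads were placed on the hairpin of another member, on one strand or the other. On the mir-3470b hairpin, the miR-3470a read lay over bases 36 to 56 with 1 mismatch, overlapping the miR-3470b read at bases 30 to 53. The miR-1195 read lay on the opposite strand at bases 47 to 66 with 2 mismatches. On the mir-3473f hairpin, mir-3473f-p3 at bases 83 to 103 was followed by mir-3473h-p5 at 98 to 115 and mir-3473h-p3 at 102 to 123. Reads listed under the names mir-3473f and mir-3473h thus tiled 1 stretch of sequence. The reads of miR-5106, miR-3473d and mir-1195-p3 were placed on their own hairpins alone. The mir-3473f hairpin, placed at chr1:106474226-106474361 on the minus strand, is shown with the stretches of its own 2 reads in capitals, which lie in inverted orientation to each other.
mir-3473f hairpin: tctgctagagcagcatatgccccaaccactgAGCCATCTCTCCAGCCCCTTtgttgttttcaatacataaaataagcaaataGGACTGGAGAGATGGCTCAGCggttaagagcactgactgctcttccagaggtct

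**Figure D1:**
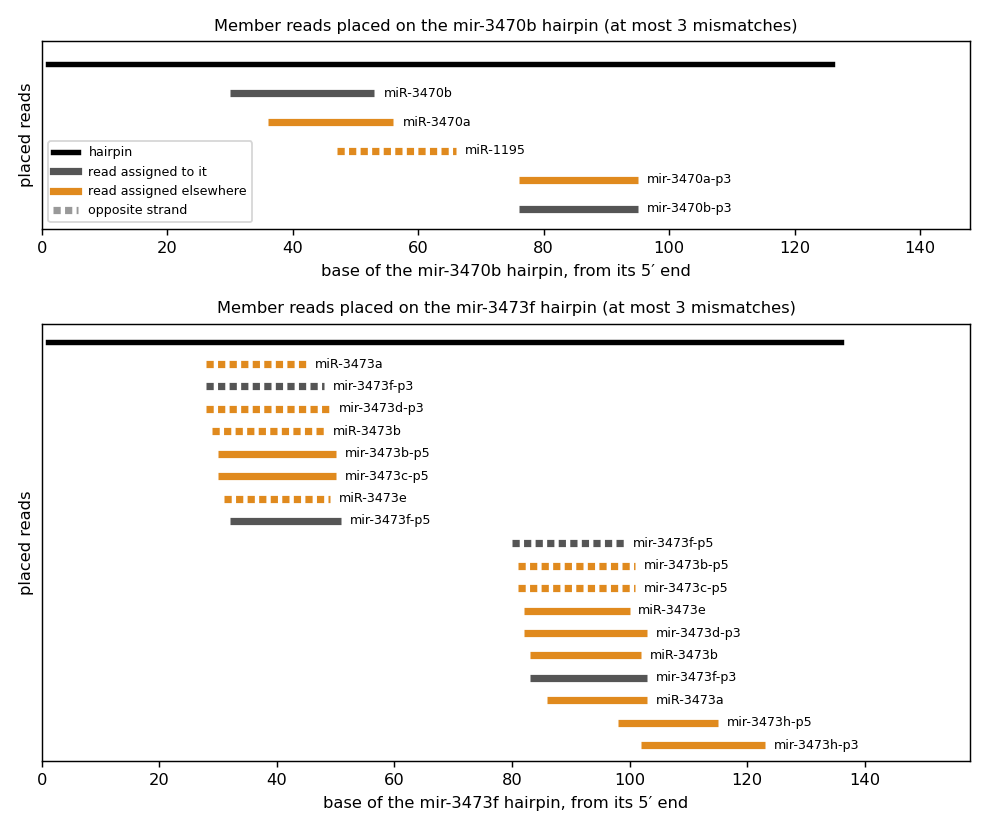
Placement of member reads along the mir-3470b hairpin (126 bases, top) and the mir-3473f hairpin (136 bases, bottom), with at most 3 mismatches. The horizontal axis is the base counted from the 5′ end, grey bars are reads assigned to that hairpin, orange bars are reads assigned to another member's hairpin, and broken bars lie on the opposite strand. Reads from several names stack on the same stretches.

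Most member sequences were present in transcripts of many genes. In GENCODE M21 transcripts (55450 genes), 15 of 18 members (83.3%) had an exact match on the same strand in at least 10 genes, with a median of 179 genes. Among all other features, 23 of 738 (3.12%) did, with a median of 1 gene. For mature miRNA names with a mouse hairpin the count was 10 of 380 (2.63%). The name groups were picked for such a resemblance, so these counts describe how far it went.

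The miR-3470b read was in transcripts of 547 genes on the same strand, and in 457 genes on the opposite strand. For 159 of the 547, a matching transcript was itself labelled protein coding. The same stretch of its hairpin, which differs by C2A, was in 6 genes on the same strand. The miR-1195 read was in 548 genes and its hairpin's form in 33. The mir-3473f-p3 read was in 183 genes and its hairpin's form in 13. The mir-3470b-p3 read was in 578 genes and its hairpin's form in 334. Each of these reads thus matched more genes than did the hairpin that gave it its name.

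That order did not hold for every member. Among the 13 members with a mismatch, 8 matched more genes as read and 5 matched more genes in the form of the hairpin. Those 5 included mir-3473h-p5, in 175 genes as read and 219 as its hairpin has it, and mir-3473c-p5, in 27 and 68. The reads of miR-3473d and miR-5106 were in 0 genes and their hairpins' forms in 1 gene each.

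**Figure D2:**
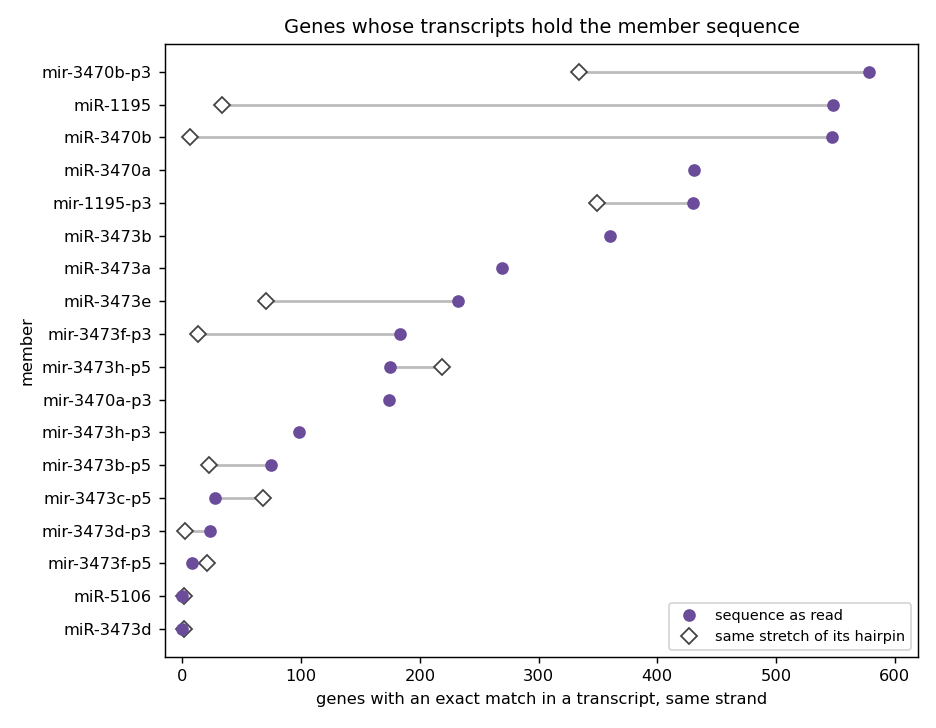
Number of genes with an exact same-strand match to each member in GENCODE M21 transcripts. Filled circles are the sequence as read and open diamonds the same stretch of the assigned hairpin where it differs, and miR-1195 and miR-3470b have the widest gaps, 548 against 33 and 547 against 6.

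Deposited reads per library were 179621 to 232635 in SIX2_EV and 253037 to 421279 in control_EV, and SIX2_EV libraries listed 276, 276 and 419 features above 0, against 439, 451 and 680 in control_EV libraries. Of 2410 values above 0, 31 were under 5 and 169 were equal to 5, so a 0 is read as not listed rather than absent. Levels are given as CPM, the count per 1000000 reads of the TMM effective library size, where 5 reads were worth 47.2, 69.5 and 22.6 CPM in SIX2_EV replicates 1 to 3 and 18.1, 12.4 and 4.44 CPM in control_EV replicates 1 to 3. Mature miRNA names held 13.9, 6.77 and 32.4% of deposited reads in SIX2_EV and 31.4, 56.5 and 70.1% in control_EV, so scaling bears on every comparison of levels. Of 6 neuronal marker miRNAs, 5 were listed, with summed levels of 2039 to 3014 CPM in SIX2_EV, against 2285 to 3288 CPM in control_EV. Among them, miR-124-3p, which marks neurons, was not listed, and of the 5 listed, miR-218-5p and miR-9-5p were each above 0 in 1 control_EV library alone. All 6 myeloid markers were listed, with sums of 30637 to 32357 CPM in SIX2_EV, against 24634 to 47154 CPM in control_EV, and all 3 red blood cell markers, with 13781 to 21080 CPM in SIX2_EV, against 8616 to 30446 CPM in control_EV. Over the 6 libraries, miR-146a-5p alone had 18676 to 41382 CPM. The other myeloid markers were lower, with 2529 to 4103 CPM for miR-142-5p and 403 to 1506 CPM for miR-142-3p. miR-223-3p had 0 to 409 CPM, miR-155-5p 139 to 228 CPM and miR-150-5p 0 to 99.3 CPM. The myeloid sums thus mostly give the level of miR-146a-5p. Likewise, the neuronal sums mostly give that of miR-7a-5p, with 1558 to 2866 CPM over the 6 libraries. miR-128-3p had 75.5 to 276 CPM and miR-129-5p 0 to 432 CPM. The red blood cell sums mostly give the level of miR-451a, with 5578 to 27130 CPM. The part of other cells in the members' values was not tested, and in bulk RNA fewer cells of a type and less RNA per cell cannot be told apart. The labels do not say whether replicates were separate cultures.

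Fewer members were listed in replicates 1 and 2 of SIX2_EV than in any control_EV library, as was true of all features. The number listed above 0 was 7, 5 and 13 of 18 in SIX2_EV replicates 1, 2 and 3, and 12, 12 and 18 in control_EV. The third replicate listed the most members in each group.

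**Figure D3:**
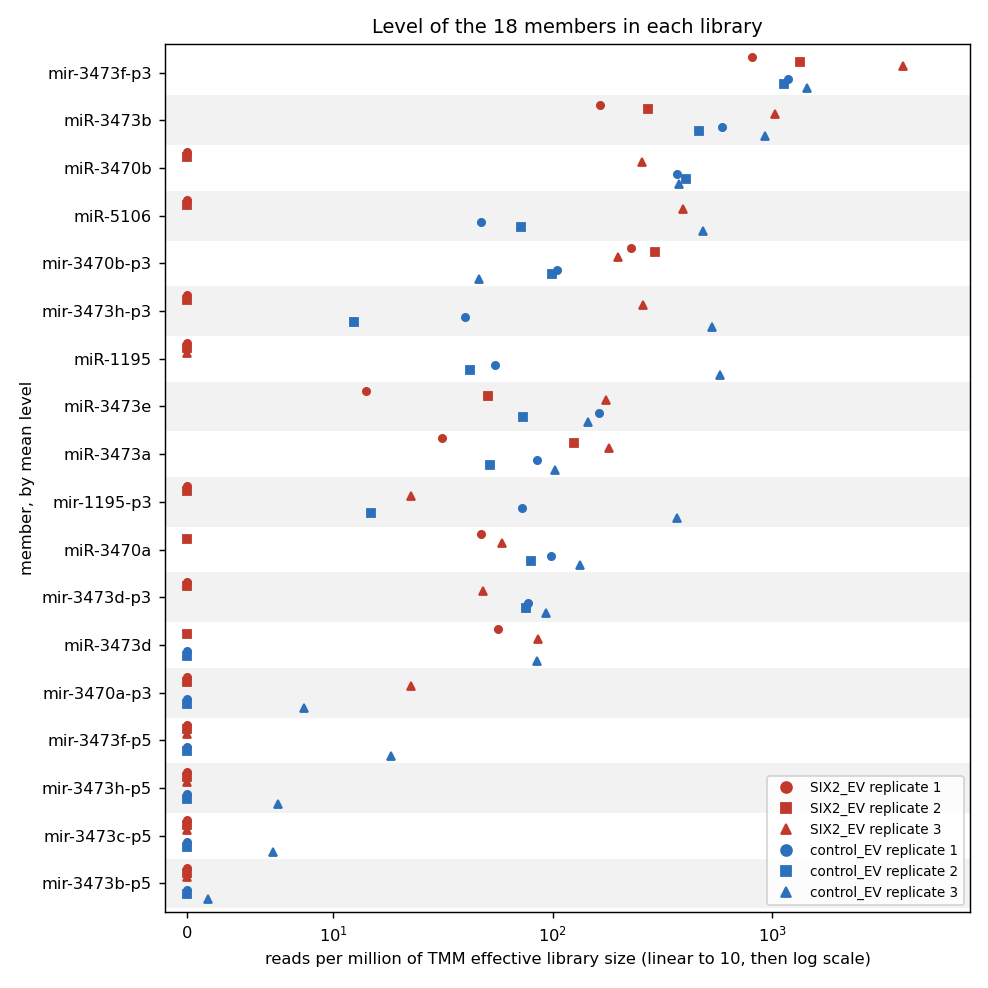
Level of each of the 18 members in each library, in CPM on an axis that is linear to 10 and logarithmic above. Red symbols are SIX2_EV libraries and blue symbols control_EV libraries, drawn below them. Triangles mark replicate 3, and miR-3470b is at 0 in SIX2_EV replicates 1 and 2 while the control_EV symbols lie between 370.1 and 407.3.

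The 2 reads named for the arms of mir-3470b differed between the groups in opposite directions under TMM scaling. The miR-3470b read was in transcripts of 547 genes and the mir-3470b-p3 read in 578, so a shared precursor is not implied. miR-3470b had 0, 0 and 56.5 reads in SIX2_EV and 102, 164 and 424 reads in control_EV. In CPM this was 0, 0 and 254.9 in SIX2_EV, and 370.1, 407.3 and 376.3 in control_EV. No SIX2_EV library reached the lowest control_EV library, and the control_EV libraries were close to each other. The mean level in SIX2_EV was 85.0 ± 147.2 CPM, against 384.5 ± 19.9 CPM in control_EV (SD, n = 3 each), a log2 fold change of -2.11. In replicates 1 and 2, where SIX2_EV was listed at 0, a floor of 5 reads per library puts the difference at 6.66-fold or more.

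miR-3470a, which shares 14 bases with the miR-3470b read, had 5, 0 and 13 reads in SIX2_EV and 27, 32 and 150 reads in control_EV. The groups did not overlap in CPM, with 47.2, 0 and 58.7 in SIX2_EV and 98.0, 79.5 and 133.1 in control_EV. The log2 fold change was -1.48, from a mean of 35.3 ± 31.1 CPM in SIX2_EV, against 103.5 ± 27.3 CPM in control_EV (SD, n = 3 each).

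The other arm behaved differently. mir-3470b-p3 had 24, 21 and 44 reads in SIX2_EV, against 29, 40 and 52 reads in control_EV. In CPM it had 226.5, 291.8 and 198.5 in SIX2_EV and 105.2, 99.3 and 46.1 in control_EV. Here every SIX2_EV library lay above every control_EV library, with a log2 fold change of 1.51, which was 0.23 and overlapping when libraries were scaled to all deposited reads. mir-3470a-p3 had 0, 0 and 5 reads in SIX2_EV and 0, 0 and 9 reads in control_EV, too few for a comparison.

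A ratio of 2 reads within a library does not depend on the scaling. The ratio of miR-3470b to mir-3470b-p3 reads was 0, 0 and 1.28 in SIX2_EV and 3.52, 4.10 and 8.15 in control_EV. The arm named miR-3470b thus had the fewer reads of the pair in 2 SIX2_EV libraries and the more in every control_EV library, and the groups did not overlap. Of the 318 other tested features set over mir-3470b-p3, miR-3470b included, 177 were lower in SIX2_EV without overlap (55.7%), so most features shared this pattern against that denominator. In all, 7 ratios between members were computed, of which 5 had a value in every library. The groups did not overlap in 3 of these 5 and overlapped in 2.

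The miR-3473 names held most of the members' reads. mir-3473f-p3 was the most abundant member, at rank 62 of 756 by mean level. It had 807.0, 1343 and 3945 CPM in SIX2_EV, against 1175, 1126 and 1444 CPM in control_EV. The SIX2_EV libraries lay on both sides of the control_EV libraries. The log2 fold change of 0.71, which was -0.07 without SIX2_EV replicate 3, came with an SD of 1678 CPM in SIX2_EV and 171.1 CPM in control_EV (n = 3 each). It made up 59.9, 64.4 and 59.1% of member reads in SIX2_EV, against 40.8, 44.7 and 27.0% in control_EV.

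miR-3473b, at rank 105, was the only member with the annotated sequence. It had 17.5, 19.67 and 228.8 reads in SIX2_EV and 162.7, 187.1 and 1044 reads in control_EV. In CPM this was 165.2, 273.3 and 1032 in SIX2_EV and 590.2, 464.6 and 926.6 in control_EV, so the highest SIX2_EV library passed every control_EV library. The log2 fold change was -0.41, and it was -1.44 without SIX2_EV replicate 3 and 0.02 without control_EV replicate 3.

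The overlapping miR-3473 reads were also set against each other within each library. The ratio of miR-3473b to mir-3473f-p3, which is 1 base longer, was 0.205, 0.203 and 0.262 in SIX2_EV and 0.502, 0.412 and 0.642 in control_EV. The ratio of miR-3473e to mir-3473f-p3 was 0.0175, 0.0380 and 0.0444 in SIX2_EV and 0.138, 0.0652 and 0.100 in control_EV. In both, every SIX2_EV library lay below every control_EV library. For miR-3473a, which is shorter and shifted too, the groups overlapped, with ratios of 0.0389, 0.0931 and 0.0459 in SIX2_EV and 0.0727, 0.0463 and 0.0713 in control_EV. They also overlapped for mir-3473h-p3, with 0, 0 and 0.0652 in SIX2_EV and 0.0340, 0.0110 and 0.367 in control_EV. Among the 318 other tested features set over mir-3473f-p3, these included, 77 were lower in SIX2_EV without overlap (24.2%).

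Among the miR-3473 names, mir-3473d-p3 was the one whose levels did not overlap between groups. It had 0, 0 and 10.67 reads in SIX2_EV and 21.2, 30.5 and 104.8 reads in control_EV, a log2 fold change of -2.07, which was -8.00 without SIX2_EV replicate 3, with SIX2_EV at 0. In replicates 1 and 2, the floor puts the difference at 1.31-fold or more. miR-3473a, with 31.4, 125.0 and 181.2 CPM in SIX2_EV, against 85.4, 52.2 and 103.0 CPM in control_EV, overlapped at a log2 fold change of 0.47, which ran from 0.00 without SIX2_EV replicate 3 to 0.92 without SIX2_EV replicate 1. miR-3473e had 14.2, 51.0 and 175.2 CPM in SIX2_EV, against 162.1, 73.5 and 144.4 CPM in control_EV, and overlapped as well at -0.58, which was -1.69 without SIX2_EV replicate 3 and -0.11 without SIX2_EV replicate 1.

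mir-3473h-p3 had 0, 0 and 57 reads in SIX2_EV and 11, 5 and 597 reads in control_EV. In each group the third library stood far above the others. Its log2 fold change of -1.12 became 1.80 without control_EV replicate 3 and -9.30 without SIX2_EV replicate 3, which leaves SIX2_EV at 0 so that the fitted value is no bound. miR-3473d, with 6, 0 and 19 reads in SIX2_EV and 0, 0 and 96 reads in control_EV, did not pass the filter on low counts. mir-3473b-p5, mir-3473c-p5, mir-3473f-p5 and mir-3473h-p5 were listed in control_EV replicate 3 alone, with 1.67 to 20.67 reads.

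miR-1195 was not listed in any SIX2_EV library (0 reads), against 15, 17 and 652 reads in control_EV. With the floor of 5 reads per library, SIX2_EV was at least 4.85-fold lower, a bound that shrank to 1.04-fold when control_EV replicate 3 was left out. The other arm, mir-1195-p3, had 0, 0 and 5 reads in SIX2_EV and 20, 6 and 414 reads in control_EV and did not pass the filter. The third control_EV library thus held most of the reads of both arms.

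miR-5106 had 0, 0 and 87 reads in SIX2_EV and 13, 29 and 546 reads in control_EV. In CPM the third replicates stood at 392.5 in SIX2_EV and 484.5 in control_EV, against at most 72.0 in any other library. The groups overlapped, and the log2 fold change of -0.58 became 1.27 without control_EV replicate 3 and -9.34 without SIX2_EV replicate 3, which is a fit against SIX2_EV libraries at 0.

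Across the 11 members that passed the filter, 8 had a negative log2 fold change (SIX2_EV over control_EV) and the median was -0.58. Over all 319 features tested, 206 were negative (64.6%) and the median was -0.30. The groups did not overlap and SIX2_EV was lower for 4 of the 11, miR-1195, miR-3470a, miR-3470b and mir-3473d-p3, and for 54 of 319 features (16.9%). A 0 is taken as 0 in these counts. miR-1195, at 0 in every SIX2_EV library, passed the filter only through control_EV. Its place among the 4 was thus fixed by the filter. miR-3470b and mir-3473d-p3 were above 0 in 1 SIX2_EV library and miR-3470a in 2, against 3 control_EV libraries each. These members too could not pass the filter, which needs 3 libraries, without control_EV, so nothing is read from the count of 4. SIX2_EV was higher without overlap for 1 of the 11, mir-3470b-p3, and for 19 of 319 features (5.96%). Without control_EV replicate 3, 5 of the 11 were negative. At an adjusted p of 0.05, edgeR's quasi-likelihood test called 0 of the 319 features (0%), with 39 (12.2%) at an unadjusted p of 0.05, and DESeq2 called 20 of 312 (6.41%). mir-3470b-p3 was among the 20, and nothing is read from that since the members were picked on this contrast.

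Scaling moved the members together. The median of all tested features was -1.52 when libraries were scaled to all deposited reads and 0.02 when scaled to mature miRNA reads. For miR-3470b the log2 fold change was -2.75 with all deposited reads, -1.94 with mature miRNA reads and -2.06 with DESeq2. It was -4.10 with the replicate number as a block, and -10.2 without SIX2_EV replicate 3 and -9.36 in replicates 1 and 2 alone, both of which are fits against SIX2_EV libraries at 0 and no bound. Leaving out any other single library gave -2.15 to -1.55. mir-3473f-p3 and miR-3473a changed sign, at -0.29 and -0.73 with all deposited reads and 0.94 and 0.70 with mature miRNA reads. The same 4 members lay lower without overlap under TMM, all deposited reads and mature miRNA reads, with a 0 taken as 0. For miR-1195 this again follows from the filter, which also bears on the others. At the floor, worth 69.5 CPM in SIX2_EV replicate 2, miR-1195 would overlap its lowest control_EV level, 42.2 CPM. On the scale of mature miRNA reads, of which that library had 15756, the floor also lies above the lowest control_EV values of miR-3470a and mir-3473d-p3.

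**Figure D4:**
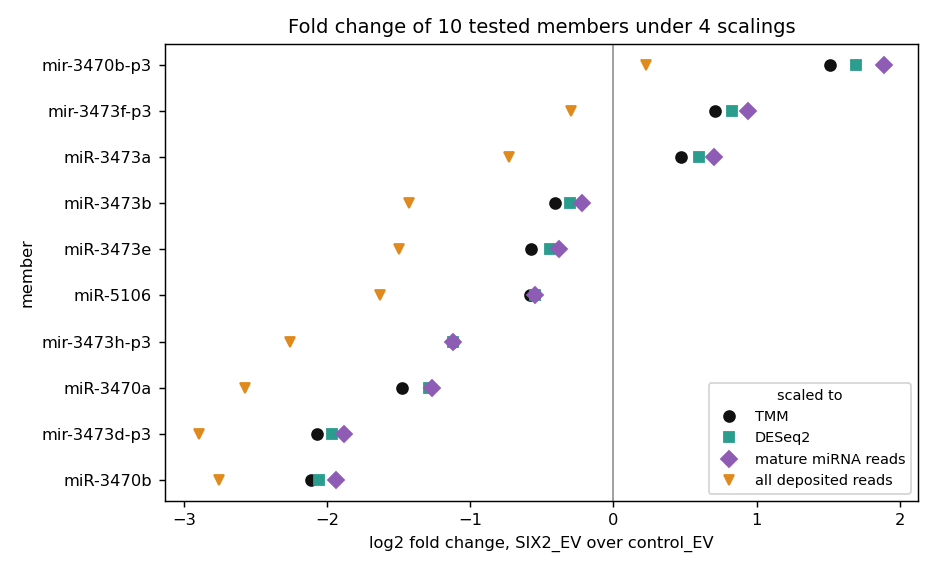
Log2 fold change, SIX2_EV over control_EV, of 10 tested members under 4 scalings, without miR-1195, which was at 0 in SIX2_EV. Scaling to all deposited reads gives the lowest value of the 4 for each member drawn, and mir-3470b-p3 lies right of 0 under all 4.

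The members' reads also followed the third replicates. Together the 18 members took 0.0795, 0.0645 and 0.803% of deposited reads in SIX2_EV and 0.308, 0.401 and 1.43% in control_EV. The 95% exact binomial intervals ran from 0.0546 to 0.0938% over SIX2_EV replicates 1 and 2 and were 0.763 to 0.845% in replicate 3. The mean share was 0.316 ± 0.422% in SIX2_EV and 0.713 ± 0.624% in control_EV (SD, n = 3 each), a difference within the spread between libraries. Relative to mature miRNA reads, the members came to 0.573, 0.952 and 2.48 per 100 in SIX2_EV and 0.982, 0.709 and 2.04 per 100 in control_EV, in which the third replicates were again the highest.

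The 5 sequences named mir-1285 were high in the same libraries. Mouse 7SL RNA held 4 of them exactly, which had 17% of the mir-1285 reads, and held the pig-named ssc-mir-1285-p3, which had the rest, with 1 mismatch. They took 0.334, 0.202 and 7.94% of deposited reads in SIX2_EV and 0.283, 0.447 and 7.48% in control_EV. The third replicate over the mean of the first 2 was 29.6-fold in SIX2_EV and 20.5-fold in control_EV for mir-1285, and 11.2-fold and 4.04-fold for the members. Their part in the members' values was not tested. On the CPM scale, 8 of 11 tested members (72.7%) were higher in the third replicate than in the mean of the first 2 in both groups. The same held for 124 of 319 features (38.9%). A 0 was taken as 0, and 5 reads were worth 47.2 and 69.5 CPM in SIX2_EV replicates 1 and 2, against 22.6 CPM in replicate 3. A low member can therefore count as higher through the floor alone, such as mir-3473d-p3 with 0, 0 and 48.1 CPM in SIX2_EV. mir-3470b-p3 was an exception, being lowest in the third replicate in each group.

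**Figure D5:**
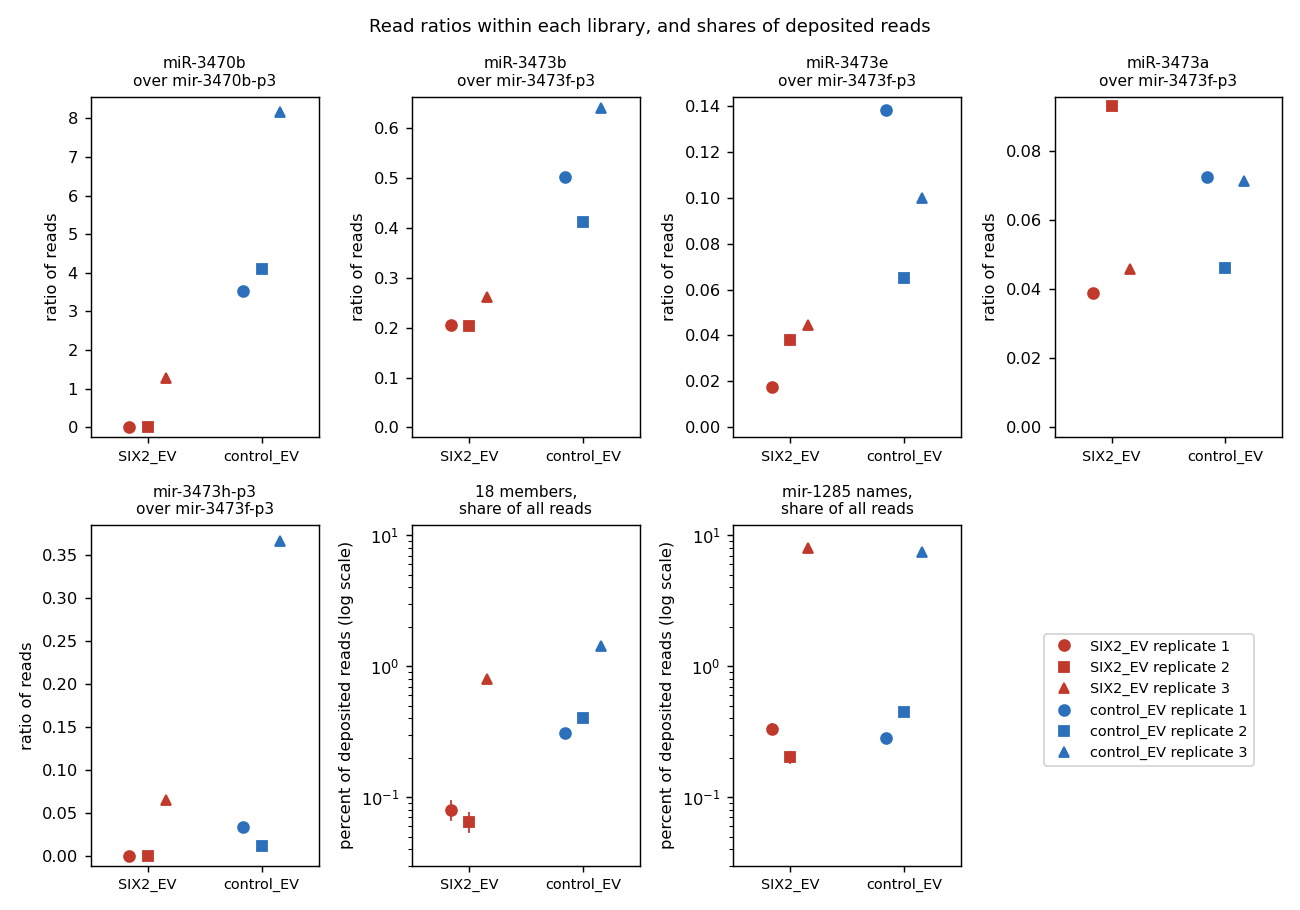
Ratios of reads within each library for the 5 pairs of members with a value in every library, and the share of deposited reads (log scale, with 95% exact binomial intervals) of the 18 members and of mir-1285 names. SIX2_EV libraries are red and control_EV libraries blue, and triangles mark replicate 3. The groups do not overlap in 3 ratios and overlap in 2, miR-3473a and mir-3473h-p3 over mir-3473f-p3. The third replicates of both groups have the highest shares, 0.803 and 1.43% for the members.

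Other names with a reported or suspected link to rodent SINE or 7SL sequence, where tested, had positive log2 fold changes under TMM scaling. Of 16 such names, 5 were listed, with 9 features, of which 4 were tested and 0 called, against a background of 0 of 319. Their log2 fold changes were 0.74 for miR-5126, 0.12 for mir-5099-p3, 1.23 for mir-1285-p3 and 1.23 for mir-1285-p5. The spread between libraries was wide (SD, n = 3 each). mir-1285-p3 had 21637 ± 30259 CPM in SIX2_EV, against 9207 ± 11912 CPM in control_EV. For miR-5126 the values were 1230 ± 354 and 739 ± 663 CPM, and for mir-5099-p3 5697 ± 4061 and 5257 ± 4104 CPM. No difference in direction from miR-3470b is read from these values. With all deposited reads, the values were -0.06, -1.28, 0.09 and -0.12, so 3 of the 4 changed sign. A run of at least 12 bases was shared with a member by 9 other features, mir-1934-p3 and miR-5128 among them. Of the 3 of these that were tested, 1 was negative, 2 were positive and 0 were called. Of the 2 positive ones, mir-1934-p3 at 0.71 is the mir-3473f-p3 sequence listed again, so it repeats the value of a member. The other positive value was 0.11, and miR-5128 was at -0.44.

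The features whose pattern was most like that of miR-3470b were found by the mean absolute difference of centred log2(CPM + 10) over the 6 libraries, among 457 features with a mean of at least 10 CPM. They were miR-212-3p (0.338), miR-350 (0.573), miR-27a-5p (0.674), miR-378a-5p (0.698) and miR-466p-3p (0.736). Each was listed at 0 in SIX2_EV replicates 1 and 2, as miR-3470b was. The CPM of miR-212-3p, which is transcribed with miR-132 under control of CREB, was 0, 0 and 306.8 in SIX2_EV, against 210.4, 258.3 and 360.3 in control_EV. For the summed level of the 18 members, the most alike were miR-7688-5p (0.156), miR-365-5p (0.160) and miR-342 (0.243), which were highest in the third SIX2_EV library, as the sum was.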

How the data were processed

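Small RNA was read from 6 libraries, 3 per group, grouped by the treatment label. Per the labels' protocols, the authors used Trizol and the TruSeq small RNA kit and filtered reads with ACGT101-miR, a step that took out repeats and known RNA families beside adapter and junk reads and could also take out reads of repeat-like miRNAs. Aligner, build and miRBase release were not stated in the sources used here. Raw columns as deposited hold estimated counts, some of them fractions, per the file headers. The deposited normalized signal is, in each library, the authors' count times 1 factor (0.227 to 3.40), set in a way that no source used here states.

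The 823 rows were summed by name and sequence to 756 features, rounded to whole reads and fitted with edgeR 4.0.16 (R 4.3.3; quasi-likelihood test, TMM, filterByExpr, no block, Benjamini-Hochberg adjustment) and, as an alternative, DESeq2 1.42.0. Shares and CPM used unrounded reads, with exact (Clopper-Pearson) intervals at 95% that cover only counting error within a library. They treat every read as independent, although the reads carry no molecular identifiers. The floor for bounds was 5 reads per library. Sequences were matched exactly to 141767 GENCODE M21 transcripts with Python 3.11.15. For 7 of the 8 members named for an annotated miRNA, RefSeq held that mature miRNA, with the annotated sequence of the deposited table, while the reads mostly differed from it. The members, the related names, the marker lists and the rule for like features were chosen with earlier results of these data known. Other scalings, filters, values for zeros, left-out libraries and the replicate block were tried. Replicate libraries differed beyond sampling noise, and since the labels do not say that they came from separate cultures, p-values measure a spread that may be technical.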

Additional observations from a re-analysis of the deposited data

How the results depend on the processing

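edgeR called 0 features under TMM, all deposited reads, mature miRNA reads, no filter on low counts, zeros set to 4, the replicate block, each left-out library and replicates 1 and 2 alone, with 10 to 99 at an unadjusted p of 0.05, whereas DESeq2 called 20, with 54 unadjusted. The cause was not tested. Of the 11 tested members, 8 were lower in SIX2_EV in the main comparison, 10 with all deposited reads, and 5 to 9 when 1 library was left out, with 5 without control_EV replicate 3. The difference in the members' share of deposited reads (SIX2_EV minus control_EV) was -0.398 percentage points, and -0.641 to -0.0387 when 1 library was left out. It was -0.0214 over TMM effective library sizes, a denominator added after the data were seen, and 0.0906 over mature miRNA reads, so its sign rests on the denominator. Over 143 member values under alternatives, 121 moved by less than the spread between replicates and 22 by more. The members with the widest range, miR-1195, miR-3470b, miR-5106, mir-3473d-p3 and mir-3473h-p3, had SIX2_EV libraries at 0, where the fitted value depends on the prior count. The same-numbered libraries of the 2 groups had correlated deviations of 0.213, 0.0699 and 0.688, so the numbers were not taken as pairs. With the replicate block, 45 features had an unadjusted p under 0.05. SIX2_EV replicates 1 and 2 did not correlate best with their own number. Depth limits every member at 0, since 5 reads were worth up to 69.5 CPM.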
